A study of Mus musculus with 2 samples.

Results

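The genes described here carry out mitosis, the stage of the cell cycle in which copied chromosomes are separated and the cell divides. They are a list of 42 gene symbols, among them mitotic kinases, kinesin motors, kinetochore proteins and cytokinesis factors, and each was matched to the single gene symbol of its probe sets, with Cdk1 found under its older symbol Cdc2a. All 42 had a probe set of their own, 90 probe sets in all, out of 20660 genes measured. RNA came from the kidney of a B6C3Fe a/a-bpck mutant mouse, a model of polycystic kidney disease, and from that of a wild-type mouse, at postnatal day 3 in both. No strain is named for the wild type, and the submitters describe both samples as being in a time of rapid growth of the renal corpuscles. The labels give neither sex nor the number of animals behind a sample, and they do not name the mutated gene. Both were hybridised to Affymetrix Mouse 430 2.0 chips, 1 array per genotype, so there were no replicates and no test, and every difference below describes this pair of arrays.

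Entry into mitosis is driven by the kinase Cdk1 bound to cyclins A and B, after which Aurora and Polo-like kinases build the spindle. Kinetochores, protein assemblies on the centromeres, tie chromosomes to spindle microtubules, kinesins move and crosslink those microtubules, and a checkpoint holds back anaphase until every chromosome is attached. Transcripts of these genes accumulate in G2 and mitosis and are scarce in resting cells, so they serve as markers of dividing cells. In the mouse kidney nephrons are still being formed in the first days after birth, and growth of the tubule epithelium is a feature of cystic kidneys.

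Values were the deposited intensities, the expression index that the dChip software computes for a probe set on a linear scale. A floor of 4.2, the 20th percentile over the arrays together, was applied before log2 was taken, and genes were kept if at least 1 array read 16.53 or more, the overall median. The brightest probe set of a gene, by mean log2 intensity, stood for it. Of the 42 members 41 passed, none of them through 1 array alone, and 36 also reached 83.51, the 75th percentile. The summed intensity of all probe sets was 5175900 in the mutant array and 5173132 in the wild-type array. Intensities of different probe sets cannot be set against each other, so only the arrays are compared.

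The mitosis genes differed little between the arrays and leaned towards higher values in the mutant. Of 41 members 27 were higher in the mutant array, 65.9%, where 48% of all 13146 genes above the filter were higher. Their median log2 difference, mutant minus wild type, was 0.07, ranging from -0.19 for Cenpa to 0.42 for Melk, while the median of all genes was -0.01. A difference of at least 1.2-fold was reached by 4 members, Melk, Incenp, Bub1 and Plk1, all higher. That is 9.76% of the members, against 9.87% of all genes. No member was at least 1.2-fold lower, against 11.2% of all genes. Among genes reaching the 75th percentile, where the SD of all log2 differences was 0.24 beside 0.30 above the lower filter, 24 of 36 members were higher (background 49.5%), 4 were at least 1.2-fold higher (background 6.64%) and 0 at least 1.2-fold lower (background 5.12%). The share at least 1.2-fold higher was thus close to that of genes in general at the lower filter. Among the brighter genes it was 11.1% against 6.64%, but it rested on the same 4 members. Of these, Plk1, Bub1 and Incenp lay just above the limit, at log2 differences of 0.268, 0.271 and 0.286, where 1.2-fold is 0.263. With log2 of the value plus 32, 1 member stayed at least 1.2-fold higher. No member was at least 1.2-fold lower at either filter. At 1.1-fold 13 members were higher (31.7%, background 21.2%) and 3 lower (7.32%, background 24.2%). None was 1.5-fold apart (background 4.58%) or 2-fold apart (background 1.04%). In bulk tissue, more dividing cells and more RNA of these genes per cell cannot be told apart.

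The scaling of the arrays weighed on these counts. With the medians of both arrays set equal, all genes shifted upward, to a median of 0.07, and 64.8% of them were higher in the mutant array. Members higher on that scale numbered 36 of 41 (87.8%), and their median was 0.15. On that scale also, 10 members (24.4%) were at least 1.2-fold higher, against 15.5% of all genes. Quantile normalisation left 27 of 41 on the higher side.

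The error of a single value can be judged only from the probes. The authors' standard errors, which come from the probes of 1 array, had a median of 1.28% of the member's intensity in the mutant array and 1.39% in the wild-type array. Probe sets of the same gene disagreed by more than that: where a gene had at least 2 of them above the filter, their log2 differences had a median SD of 0.13 over 5269 genes and of 0.15 over 23 members. Of the 41 members, 25 lay less than that overall 0.13 from 0, 13 lay further on the higher side (31.7%, against 21.8% of all genes above the filter) and 3 further on the lower side (7.32%, against 24.9%). In the authors' deposited table the lower bound of the fold, which rests on the same probe errors, exceeded 1 in size for 23 members on the higher side (56.1%, background 33.7%) and 8 on the lower side (19.5%, background 37.2%). Variation between animals is in neither measure.

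**Figure D1:**
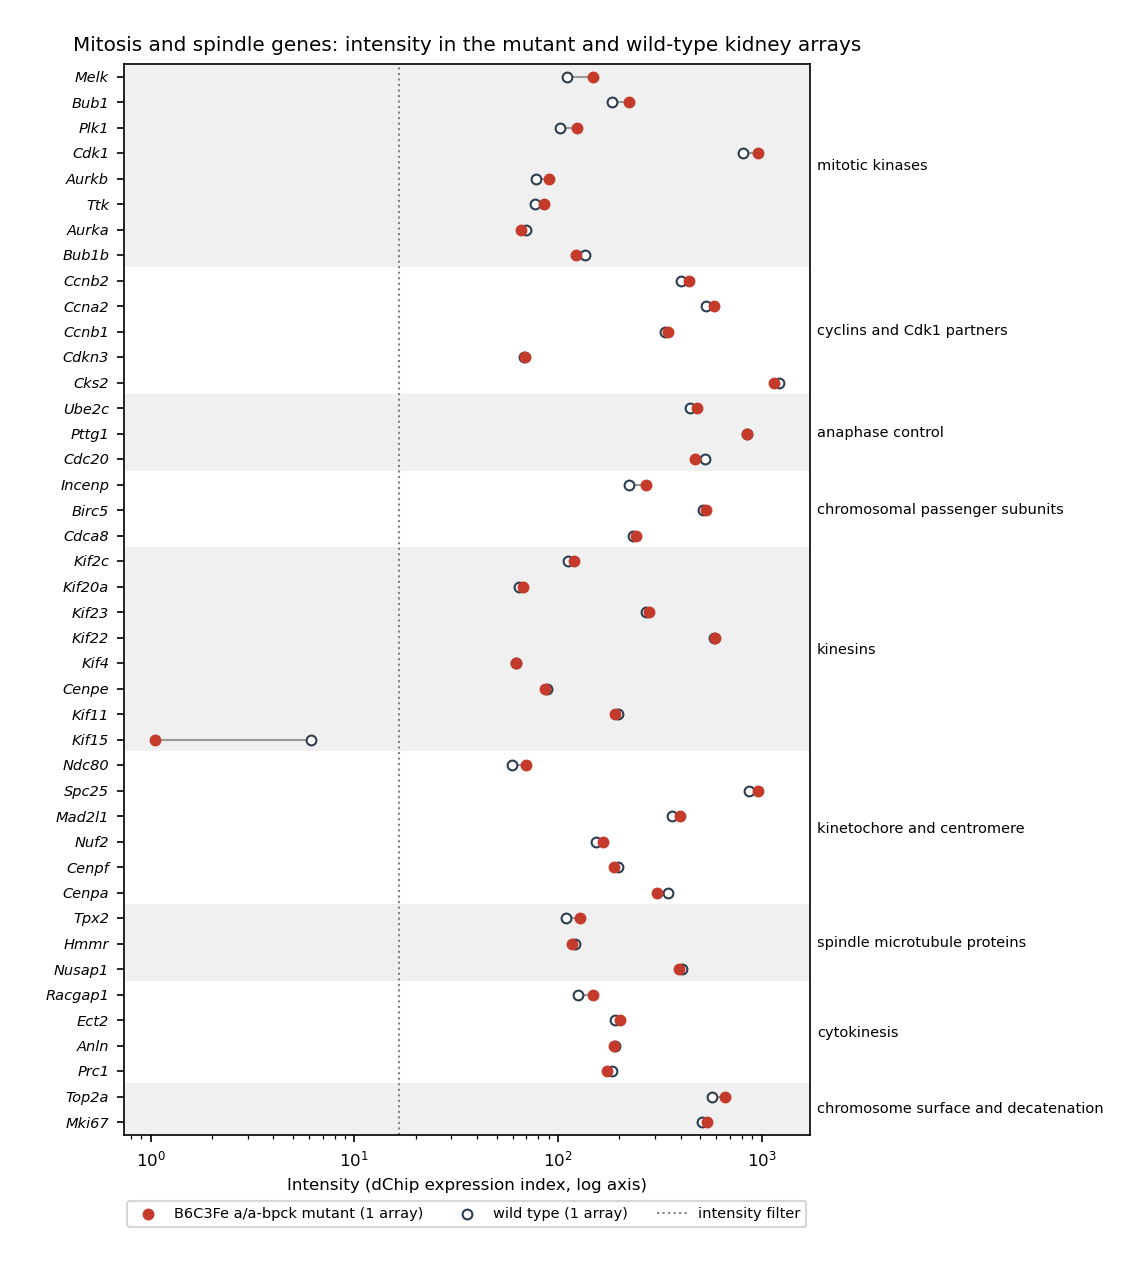
Intensity (dChip expression index, log axis) of each of the 42 genes on the probe set that stands for it, in the mutant array (filled) and the wild-type array (open), 1 array each, grouped by role. Most pairs of points nearly touch; Melk shows the widest gap among genes above the filter (dotted line at 16.53), and Kif15 lies below it in both arrays. Cenpe, also a kinetochore gene, is drawn with the kinesins.

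Many mitosis genes are switched on together through their promoters, in which an NF-Y site, the CCAAT box, stands near a cell cycle homology region, an element of the form TTTGAA or TTCGAA read by the MuvB complex. Promoter windows of 300 bases, from 250 before to 50 after the start site, were taken from RefSeq (GRCm38.p6) and matched 37 of the 42 members, the unmatched being Aurkb, Ccna2, Incenp, Kif20a and Tpx2. Both strands were searched. CCAAT was present for 27 of 37 members (73%), against 41.1% of all 27025 genes in the table. TTTGAA was also present for 27 members, against 20.2% of all genes, and TTCGAA for 3 members (8.11%), against 1.8%. The palindrome TTTAAA, searched as a further form, was present for 9 members (24.3%), against 14.9%. A CCAAT box together with TTTGAA or TTCGAA occurred for 24 of 37 members (64.9%), against 8.61% of all genes and 6.76% of the 10045 matched genes above the intensity filter. Motif matches describe letters and not bound sites.

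Promoters that hold both elements are shown for 4 genes: the kinases Bub1, Plk1 and Cdk1, among the members furthest higher in the mutant array, and Cenpa, the member furthest lower. They lie at chr2:127831810-127832109 (- strand), chr7:122159185-122159484 (+ strand), chr10:69352863-69353162 (- strand) and chr5:30666636-30666935 (+ strand), and are written along the gene's own strand. Capitals mark CCAAT boxes and the elements TTTGAA or TTCGAA on either strand, so that ATTGG is CCAAT read from the other strand.
Bub1: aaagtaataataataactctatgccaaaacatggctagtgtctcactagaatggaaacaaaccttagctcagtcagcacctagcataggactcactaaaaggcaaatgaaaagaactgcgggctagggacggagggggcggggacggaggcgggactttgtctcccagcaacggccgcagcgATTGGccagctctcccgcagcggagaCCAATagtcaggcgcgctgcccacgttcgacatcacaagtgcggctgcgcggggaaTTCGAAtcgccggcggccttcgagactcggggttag
Plk1: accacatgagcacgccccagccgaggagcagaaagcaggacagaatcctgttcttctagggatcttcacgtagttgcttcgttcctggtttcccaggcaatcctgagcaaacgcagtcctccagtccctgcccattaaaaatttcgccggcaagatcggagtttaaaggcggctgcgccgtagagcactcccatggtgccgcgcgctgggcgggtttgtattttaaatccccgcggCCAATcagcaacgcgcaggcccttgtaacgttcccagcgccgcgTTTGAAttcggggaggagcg
Cdk1: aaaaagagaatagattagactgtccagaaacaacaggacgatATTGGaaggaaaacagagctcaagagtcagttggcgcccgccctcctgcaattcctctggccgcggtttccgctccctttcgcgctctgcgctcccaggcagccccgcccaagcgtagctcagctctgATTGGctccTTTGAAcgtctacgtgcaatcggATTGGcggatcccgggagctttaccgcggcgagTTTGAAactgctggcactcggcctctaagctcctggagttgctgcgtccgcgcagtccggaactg
Cenpa: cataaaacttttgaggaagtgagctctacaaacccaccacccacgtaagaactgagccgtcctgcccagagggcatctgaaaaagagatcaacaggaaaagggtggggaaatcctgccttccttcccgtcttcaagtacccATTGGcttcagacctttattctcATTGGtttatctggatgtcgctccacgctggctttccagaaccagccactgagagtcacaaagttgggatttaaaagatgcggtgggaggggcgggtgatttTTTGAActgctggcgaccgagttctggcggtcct
In Plk1 the single CCAAT box began 14 bases before the start site and TTTGAA at base 31 after it. In Bub1 the element was TTCGAA, at base 15 after the start site, with CCAAT boxes beginning 68 and 42 bases before it. Cdk1 held 3 CCAAT boxes and 2 TTTGAA elements, all before the start site. Cenpa carried CCAAT with TTTGAA, as Plk1 and Cdk1 did, although its intensity lay on the other side. Over the members above the filter, 15 of the 24 with both elements were higher in the mutant array, with a median log2 difference of 0.05, and 7 of the 12 without both were higher, also with a median of 0.05. Melk, the member furthest higher, held neither CCAAT nor any of these 3 elements in its window.

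Among the kinases, 6 of 8 were higher in the mutant array and the median log2 difference was 0.23, with a range from -0.14 to 0.42. Melk, a kinase of dividing and progenitor-like cells, read 148 in the mutant array and 111 in the wild-type array. That is 1.34-fold higher and the widest gap of any member above the filter; the authors' deposited table gives a lower bound of 1.31 for its fold. Bub1, the checkpoint kinase that phosphorylates histone H2A at the centromere, read 222 in mutant and 184 in wild type, 1.21-fold higher. Plk1, the Polo-like kinase of centrosome maturation and mitotic entry, read 124 in mutant and 103 in wild type, just over 1.2-fold higher. These were 3 of the 4 members that reached 1.2-fold, and each rested on 1 probe set above the filter.

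Cdk1, the kinase that starts mitosis, stood just under that limit at 962 in mutant and 812 in wild type, 1.19-fold higher on its only probe set. Aurkb, the Aurora kinase of the chromosomal passenger complex, read 90.5 in mutant and 77.8 in wild type, and its other probe set differed by 0.25 on the log2 scale in the same direction. Ttk, which starts the spindle checkpoint, read 85.8 in mutant and 77.0 in wild type. The exceptions were Aurka and Bub1b. Aurka, the Aurora kinase of the centrosome, read 66.2 in mutant and 69.4 in wild type. Bub1b, whose product BubR1 belongs to the inhibitor that holds back anaphase, read 123 in mutant and 135 in wild type. All 3 of its probe sets above the filter were lower, by log2 differences of -0.38 to -0.14, so the checkpoint partners Bub1 and Bub1b lay on opposite sides. With array medians set equal 7 of 8 kinases were higher (background 64.8%), Bub1b being the exception. Over all 11 probe sets of the kinases above the filter, 7 were higher, with a median of 0.22.

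The partners of Cdk1 differed less than the kinase itself. Of the 5 cyclins and Cdk1 partners 4 were higher, with a median log2 difference of 0.04. Ccnb2, a B-type cyclin, read 439.8 in mutant and 403 in wild type, a log2 difference of 0.13. Ccna2, the cyclin of S and G2 phase, read 582 in mutant and 536 in wild type, and its second probe set was also higher, by 0.06. Ccnb1, the main B-type cyclin of mitotic entry, read 345 in mutant and 336 in wild type (log2 difference 0.04), with 0.02 on its other probe set above the filter. Cdkn3, a phosphatase that acts on cyclin-dependent kinases, read 69.2 in mutant and 68.1 in wild type. Cks2, a small subunit that binds Cdk1, had its probe sets on both sides of 0: it read 1148 in mutant and 1215 in wild type on the one that stood for it, and 898 in mutant and 848 in wild type on the other. None of the 5 reached 1.1-fold.

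Of the genes that control anaphase, 1 of 3 was higher. Ube2c, the ubiquitin-conjugating enzyme of the anaphase-promoting complex, read 482 in mutant and 445 in wild type. Pttg1, the securin that holds separase inactive, read 844 in mutant and 846 in wild type, although a second probe set read 294 in mutant and 255 in wild type. Cdc20, the activator of the complex, read 473 in mutant and 525 in wild type. Its other probe sets differed by -0.07 and 0.04 on the log2 scale, so probe sets of Cdc20 did not share a direction. The median of these 3 genes was -0.0022, and 0.07 with array medians set equal.

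The chromosomal passenger subunits, which carry Aurora B from centromeres to the spindle midzone, were higher for 3 of 3 genes, with a median of 0.05. Incenp, the scaffold, read 272 in mutant and 223 in wild type, 1.22-fold higher. This rested on a single probe set of the _x_at class, whose probes can match several transcripts: its other probe sets above the filter read 59.4 and 44.0 in mutant, against 55.9 and 44.0 in wild type. Birc5, the survivin subunit, read 533 in mutant and 513.5 in wild type. Cdca8, the borealin subunit, read 241 in mutant and 233 in wild type, and all 3 of its probe sets were higher, by 0.04 to 0.17 on the log2 scale.

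Kinesins, by contrast with the kinases, lay close to 0 and none reached 1.1-fold. Of 7 above the filter 4 were higher, with a median log2 difference of 0.03 and a range from -0.05 to 0.10. All 7 were higher with array medians set equal, with a median of 0.10. On that scale 64.8% of all genes were higher, with a median of 0.07. Kif2c, which takes microtubules apart at centromeres, read 119 in mutant and 112 in wild type, a log2 difference of 0.10. This was its only probe set above the filter, and of the _x_at class. Those below the filter were lower, at 7.17 and 6.68 in mutant, against 11.65 and 9.71 in wild type. Kif20a, a kinesin of the central spindle, read 67.7 in mutant and 64.4 in wild type, and Kif22, a motor on chromosome arms, read 593 in mutant and 581 in wild type. Kif23, the motor of the centralspindlin complex, read 281 in mutant and 271 in wild type, with a dim second probe set at 28.7 in mutant and 21.2 in wild type. The difference between the kinase and kinesin groups was not tested.

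Among the kinesins with a lower value, Kif11, the motor that pushes spindle poles apart, read 191 in mutant and 197 in wild type. Its other probe sets lay at 0.10 and -0.73 on the log2 scale, the lower being a dim one at 14.2 in mutant and 23.7 in wild type. Kif4, a chromokinesin of the X chromosome, read 61.9 in mutant and 62.3 in wild type. Cenpe, the kinesin at kinetochores, read 86.2 in mutant and 88.3 in wild type, and on its other probe set 78.5 in mutant and 95.6 in wild type, so both were lower. Kif15, a spindle kinesin, had a single probe set that did not pass the filter, at 1.05 in mutant and 6.12 in wild type, and no fold is given for it.

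**Figure D2:**
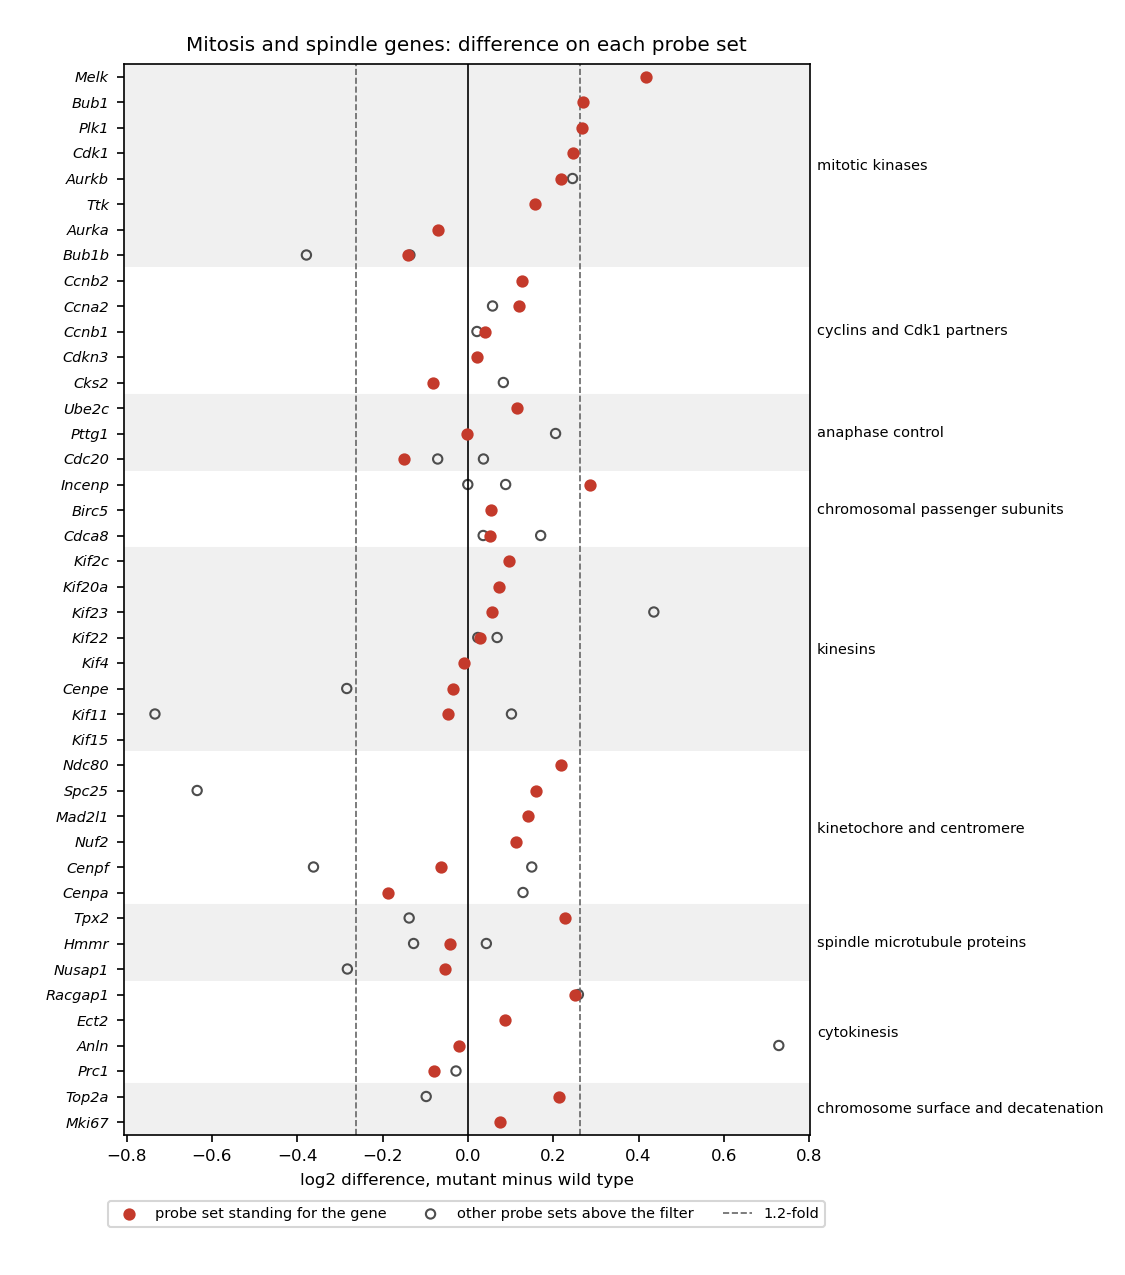
Log2 difference, mutant minus wild type, for each member, with the probe set that stands for the gene (filled) and its other probe sets above the filter (open); dashed lines mark 1.2-fold in either direction. Filled points of the kinases reach 0.42 for Melk, those of the kinesins stay between -0.05 and 0.10, and the open points of Kif11, Spc25 and Anln lie far from their filled ones. Kif15 has no point because it did not pass the filter.

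The kinetochore and centromere genes lay on both sides. In all 4 of 7 genes were higher, with a median log2 difference of 0.11 and a range from -0.19 to 0.22. The median depended on the probe sets: it was -0.03, with 3 genes higher and 4 lower, when all above the filter were averaged. With array medians set equal it was 0.18, with 6 genes higher (background 64.8%). The 3 members of the Ndc80 complex, the part of the kinetochore that grips microtubules, were all higher. Ndc80 read 69.4 in mutant and 59.7 in wild type, a log2 difference of 0.22 on its only probe set. Its partner Nuf2 read 166 in mutant and 153 in wild type, also on 1 probe set. Spc25 read 965 in mutant and 864 in wild type, a log2 difference of 0.16, while its dim second probe set read 13.7 in mutant and 21.2 in wild type.

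Mad2l1, the checkpoint protein that binds Cdc20, was higher as well, at 399 in mutant and 362 in wild type. On the lower side were Cenpe, Cenpf and Cenpa. Cenpa, the histone H3 variant that marks centromeres, read 305 in mutant and 348 in wild type, a log2 difference of -0.19, whereas a second, dimmer probe set read 37.2 in mutant and 34.0 in wild type. Cenpf, a large protein of the outer kinetochore, read 189 in mutant and 197 in wild type, and its other probe sets stood at 0.15 and -0.36 on the log2 scale. Over the 12 probe sets of this group above the filter 6 were higher, with a median of 0.04.

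Spindle microtubule proteins were mixed, with 1 of 3 higher on the intensities as deposited and 3 of 3 with array medians set equal (background 64.8%). Tpx2, which activates Aurora A and nucleates microtubules, read 128 in mutant and 109.7 in wild type, a log2 difference of 0.23. Its other probe set above the filter read 55.2 in mutant and 60.7 in wild type. Nusap1, which bundles microtubules near chromosomes, read 392 in mutant and 407 in wild type, with a dim second probe set further lower, at 13.8 in mutant and 16.8 in wild type. Hmmr, a microtubule-binding hyaluronan receptor, read 118 in mutant and 121 in wild type, and its 3 probe sets above the filter ranged from -0.13 to 0.04.

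For cytokinesis, the cleavage of the cell, 2 of 4 genes were higher, and 3 of 4 with array medians set equal (background 64.8%). Racgap1, the GTPase-activating subunit of centralspindlin, read 149 in mutant and 125 in wild type, 1.19-fold higher. Its second probe set, at 94.0 in mutant and 78.5 in wild type, gave nearly the same ratio, a log2 difference of 0.26 beside 0.25. Ect2, the exchange factor that Racgap1 recruits to activate RhoA, read 202 in mutant and 190.0 in wild type. Prc1, which crosslinks midzone microtubules, read 175 in mutant and 184 in wild type, and its other probe set was lower too. Anln, the contractile ring protein anillin, read 188 in mutant and 191 in wild type, but 18.7 in mutant and 11.3 in wild type on a dim probe set.

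Both genes of the chromosome surface and of DNA decatenation were higher. Top2a, the topoisomerase that untangles sister chromatids, read 664 in mutant and 573 in wild type, a log2 difference of 0.21, while a dim probe set read 22.1 in mutant and 23.6 in wild type. Mki67, which encodes the proliferation antigen Ki-67, read 538 in mutant and 511 in wild type, 1.05-fold higher on its only probe set. The gene most used to stain dividing cells thus differed by less than 0.13, the median SD between probe sets of a gene on the log2 scale.

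Agreement between probe sets was incomplete. Above the filter lay 72 member probe sets, of which 45 read higher in the mutant array and 27 read lower, and their median was 0.05 on the log2 scale. A 1.2-fold difference was reached by 6 on the higher side and by another 6 on the lower side, 8.33% each, where 10.4% and 13.9% of all 21422 single-gene probe sets above the filter reached it. Those lower were probe sets of Bub1b, Cenpe, Cenpf, Kif11, Nusap1 and Spc25, and none of them stood for its gene. Among the 23 members with several probe sets above the filter, 7 had all of them higher, 4 all lower and 12 on both sides of 0. All higher were Aurkb, Ccna2, Ccnb1, Cdca8, Kif22, Kif23 and Racgap1, and all lower were Bub1b, Cenpe, Nusap1 and Prc1. The 31 probe sets that did not stand for a gene had 18 higher and a median of 0.04.

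Other mitosis genes, from a list of 79 that are not members, had a median close to that of the members. Of the 77 above the filter 48 were higher (62.3%, background 48%), with a median of 0.08. The 1.2-fold limit was passed by 10 on the higher side (13%, against 9.87% of all genes) and 3 on the lower side (3.9%, against 11.2%). The list included Kntc1, a kinetochore protein that recruits dynein, at 75.4 in mutant and 46.3 in wild type (1.63-fold higher), and Cenph, a subunit of the inner kinetochore, at 78.7 in mutant and 53.7 in wild type (1.47-fold higher). Mad1l1, the partner of Mad2l1, was the furthest from 0 at 19.3 in mutant and 4.47 in wild type, but it passed the filter through the mutant array alone. With array medians set equal 61 of the 77 were higher (background 64.8%), with a median of 0.15.

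Regulators of these genes lay on both sides. Of 17 genes of the DREAM and MuvB complexes, NF-Y and E2F, 10 were higher (58.8%, background 48%), with a median of 0.12. At least 1.2-fold higher were 2 of them (11.8%, background 9.87%), and 0 were as far lower (background 11.2%). Foxm1, the transcription factor of G2 and M genes, was dim, at 25.8 in mutant and 27.7 in wild type, and so was Mybl2, its MuvB partner, at 18.1 in mutant and 18.6 in wild type. Lin37, a MuvB subunit, was 1.35-fold higher, at 43.05 in mutant and 31.8 in wild type, Lin52, another, was 1.2-fold higher, at 58.9 in mutant and 49.1 in wild type, and E2f8 read 119.8 in mutant and 101 in wild type. When probe sets with an _x_at, _s_at or _a_at suffix were set aside, 13 of these genes remained and their median was -0.0026.

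Replication genes, which act in the preceding S phase, lay further to the higher side than the mitosis genes. Of 23 above the filter 21 were higher (91.3%, background 48%), with a median of 0.21. At least 1.2-fold higher were 9 (39.1%), beside the 9.87% of all genes. Tk1, the thymidine kinase of S phase, read 229 in mutant and 149 in wild type, 1.54-fold higher. Cdc6, which loads the replicative helicase, read 66.5 in mutant and 46.9 in wild type, and its partner Cdt1 read 354 in mutant and 263 in wild type. Pcna, the sliding clamp of DNA polymerase, read 1773 in mutant and 1429.7 in wild type. The difference between the replication and mitosis lists was not tested.

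Genes of cell cycle arrest went both ways, with 7 of 11 higher (63.6%, background 48%) and a median of 0.03. At least 1.2-fold higher were 2 (18.2%, background 9.87%), and 2 were as far lower (18.2%, background 11.2%). Cdkn1a, the p21 inhibitor, read 268 in mutant and 209 in wild type, 1.28-fold higher, and Cdkn2b read 20.9 in mutant and 14.5 in wild type, passing the filter through the mutant array alone. Cdkn1c, the p57 inhibitor that is abundant in podocytes, read 1305 in mutant and 1633 in wild type, 1.25-fold lower.

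**Figure D3:**
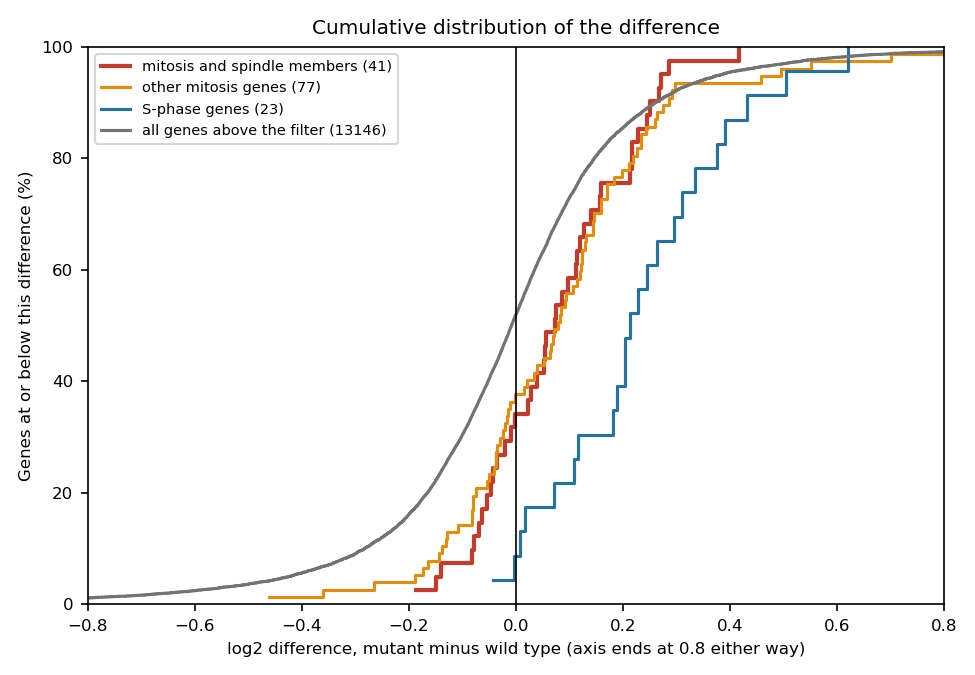
Cumulative share of genes (vertical axis, percent) at or below each log2 difference, mutant minus wild type (horizontal axis), for the 41 members, 77 other mitosis genes, 23 S-phase genes and all 13146 genes above the filter. The member and other mitosis curves run close together, with medians of 0.07 and 0.08, right of all genes at -0.01 and left of the S-phase curve at 0.21.

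Markers of the tissue and of other cells differed between the arrays as well. Their counts stand beside all genes above the filter, of which 48% were higher in the mutant array and 51.9% lower. Sums over a marker list follow its brightest probe sets, so they can differ from the count of genes in direction, and serve only to compare the arrays. Markers of the kidney were present, with all 8 proximal tubule and all 7 podocyte markers above the filter. Podocyte markers were lower for 7 of 7, summing to 1138 in mutant and 1578 in wild type. Proximal tubule markers were higher for 6 of 8, summing to 9753 in mutant and 8629.9 in wild type. Macrophage markers were higher for 7 of 8, summing to 1085 in mutant and 858 in wild type, with the receptor Csf1r at 326 in mutant and 214 in wild type. Nephron progenitor markers were higher for 6 of 11 above the filter, summing to 1091 in mutant and 969.7 in wild type over all 12. Six2, the progenitor transcription factor, read 62.0 in mutant and 26.1 in wild type, and Wt1, also a podocyte gene, 230.2 in mutant and 297 in wild type. Collecting duct markers were higher for 4 of 7, with sums of 3754 in mutant and 4178 in wild type, led by Calb1 at 1599 in mutant and 2085 in wild type. Endothelial markers were lower for 5 of 7, with sums of 1539 in mutant and 1668 in wild type, led by Kdr at 362 in mutant and 405 in wild type. Erythroid markers were lower for 4 of 6, with sums of 922 in mutant and 1041 in wild type over the 8 measured, led by Tfrc at 649 in mutant and 656 in wild type. Lymphocyte markers were dim, with sums of 92.2 in mutant and 115 in wild type, led by Lck at 30.8 in mutant and 50.6 in wild type, and Cd3e and Cd3g lay under the floor in both arrays. Of the lists above, 1 nephron progenitor marker and 1 lymphocyte marker passed the filter through the mutant array alone, and 1 erythroid marker through the wild-type array alone. The part of any cell type in the values of the mitosis genes was not tested.

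Adrenal and sex-linked genes differed widely. Adrenal markers summed to 53.7 in mutant and 608 in wild type over all 8, with Hsd3b1 at 2.77 in mutant and 205 in wild type and Chgb at 4.51 in mutant and 216 in wild type. All 6 adrenal markers above the filter passed through the wild-type array alone, which fixed their direction, and Cyp11a1, which did not pass, read 9.70 in mutant and 5.69 in wild type. Xist, the RNA of the inactive X chromosome, read 1113 in mutant and 4.67 in wild type, and the Y-linked Ddx3y read 84.2 in mutant and 394 in wild type. With 1 array per group, genotype, sex-linked expression and adrenal content cannot be told apart as the source of any difference given above.

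The median of the kinases lay above that of the kinesins under each of 10 processing alternatives, as the plot of medians shows. Several of these could hardly alter the order. Removing or raising the floor and filtering on the mean left both medians unchanged, and equal array medians shifted both alike. All reuse the same 2 arrays. In groups outside the members, put together after their values were seen, the order was the other way, at 0.09 for 7 kinases and 0.14 for 3 kinesins. Of the 3 groups plotted the kinetochore genes changed side of 0, and groups of 2 to 4 genes that are not plotted did so too: anaphase control, spindle proteins, cytokinesis, and Top2a with Mki67.

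**Figure D4:**
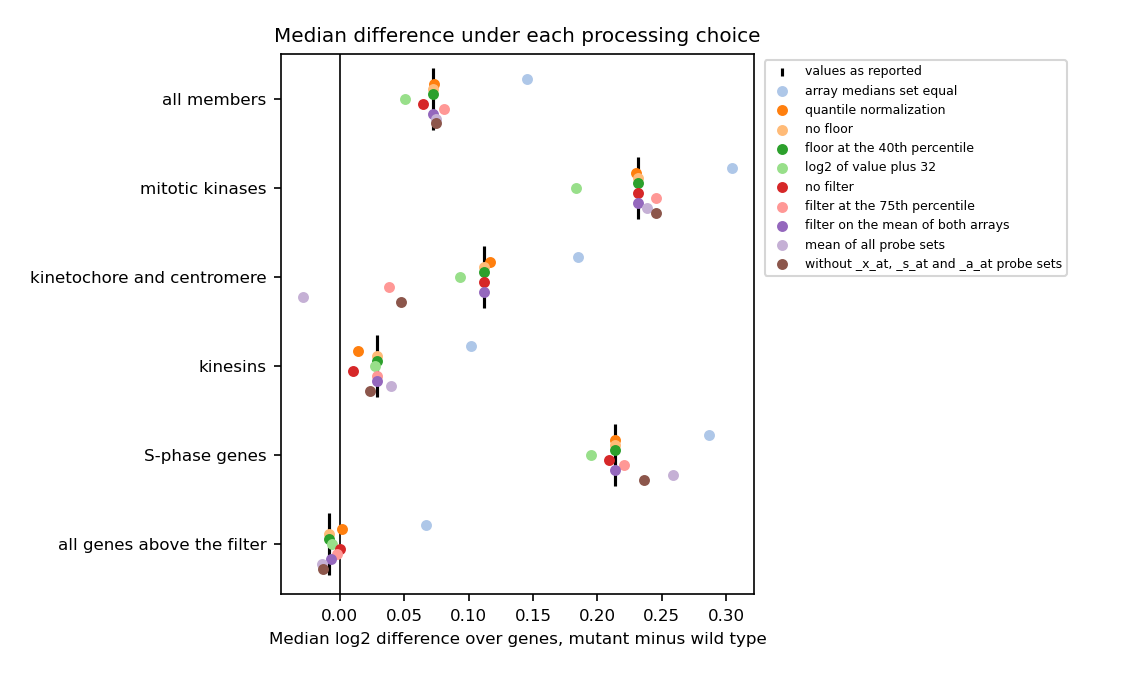
Median log2 difference over genes, mutant minus wild type (horizontal axis), for all members, 3 member groups, S-phase genes and all genes above the filter, as reported (black bar) and under each of 10 processing alternatives (points). The kinase median stays between 0.18 and 0.30 and the kinesin median between 0.01 and 0.10, while the kinetochore median runs from -0.03 to 0.18.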

How the data were processed

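RNA of 1 mutant and 1 wild-type kidney sample was hybridised to Affymetrix arrays after labelling of 100 ng, per the labels. The deposited intensity of each probe set is an expression index, linear in scale, made by the authors with dChip (Dec.2010 version, per the series' design text), leaving out Affymetrix control probe sets per the file headers. How background was corrected and arrays were scaled is not given in the sources used here. The deposited signed fold with its bounds is a score of the authors, used only where named. Both deposited files held equal intensities in 45037 of 45037 probe sets.

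Probe sets took their symbol from the deposited annotation, updated by Entrez ID through a RefSeq table (34316 of 37579 probe sets with 1 gene); 1467 with several genes and 5991 with none were left out. Lists were described by counts and medians beside all 13146 genes kept, and 1.2-fold is a rule of size and not a test. The rule for named genes was every member, then the 3 genes of each further pathway list with the largest absolute difference, with Foxm1, Mybl2, Pcna, Cdkn1a, Cdkn1c, Six2, Hsd3b1, Xist and Ddx3y whatever their values, and the brightest gene of each marker list, which for podocytes and proximal tubule is not reported here. Members, roles and lists were chosen with earlier results of these data known. The alternatives concerned scaling, floor, pseudocount, filter, probe set choice and fold. Precision is limited by the number of arrays, 1 per genotype. Python 3.11.15 and pandas 2.3.3 were used.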

Additional observations from a re-analysis of the deposited data

How the results depend on the processing

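With 1 array per group no alternative measures animals, and dim probe sets rest on a background step that cannot be checked. No paired analysis was possible because each group holds 1 sample. A list median was taken to hold when it moved by less than 0.05, and a count when it stayed within 1.5 times. With array medians set equal, the median log2 difference was 0.15 for the members, 0.30 for kinases, 0.10 for kinesins, 0.18 for kinetochore genes, 0.15 for other mitosis genes and 0.29 for S-phase genes; 10 members were at least 1.2-fold higher, and medians changed side for anaphase genes (0.071), spindle proteins (0.031) and all genes (0.067). Quantile normalisation put the median of all genes at 0.0015. With log2 of the value plus 32, 1 member stayed at least 1.2-fold higher. A filter at the 75th percentile gave 0.038 for kinetochore genes and -0.064 for nephron progenitor markers, and without a filter 1 member, Kif15, was at least 1.2-fold lower. Averaging all probe sets gave -0.029 for kinetochore genes, 0.10 for anaphase genes, 0.17 for cytokinesis genes and 0.066 for Top2a with Mki67. Without _x_at, _s_at and _a_at probe sets, which stood for 19 members, 1 member was at least 1.2-fold lower, and medians were 0.047 for kinetochore genes, 0.075 for anaphase genes, 0.087 for spindle proteins, 0.13 for passenger subunits, -0.020 for cytokinesis (Anln alone), -0.012 for Top2a with Mki67 and -0.0026 for regulators of G2/M genes. At 1.1-fold 13 members were higher and 3 lower, and at 1.5-fold and 2-fold 0 were, beside the shares of all genes given above. With the authors' deposited table, members were taken whose lower bound of the fold exceeded 1 in size. On that rule 23 were higher (56.1%, background 33.7%) and 8 lower (19.5%, background 37.2%). The cause of these shifts was not tested, beyond what each setting does by construction. Of 395 single-gene values under alternatives, 14 moved by more than 0.13. Most could not move that far: changes of floor and filter left single members unchanged, and equal array medians shifted all alike by less than 0.13. The count is therefore no measure of stability. Melk, Incenp, Bub1 and Plk1, the members at least 1.2-fold higher, kept their direction. Melk, Bub1 and Plk1 had 1 probe set each above the filter, so the choice of probe set could not change theirs. Incenp fell under 1.2-fold, to 0.12 with all probe sets averaged and to 0.088 without suffixed probe sets. Other members did change direction. Without suffixed probe sets Cdc20 went from -0.15 to 0.04 and Kif11 from -0.05 to 0.10. In the same setting Cenpa, the member furthest lower, went from -0.19 to 0.13, and Top2a went from 0.21 to -0.10. Spc25 went from 0.16 to -0.63 on its dim probe set, and was the member at least 1.2-fold lower there.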

Other observations

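Further groups within the list of other mitosis genes were put together after their values had been seen, and are given as values only. Of 7 mitotic kinases that are not members (Nek2, Plk4, Haspin, Wee1, Pkmyt1, Mastl and Cit) 5 were higher in the mutant array, with a median log2 difference of 0.09 and a range from -0.14 for Plk4 to 0.28 for Wee1, the kinase that restrains Cdk1. Of 3 kinesins above the filter that are not members 2 were higher, with a median of 0.14: Kif20b read 118 in mutant and 101 in wild type, Kif18b 37.5 in mutant and 33.9 in wild type, and Kif18a 85.9 in mutant and 94.9 in wild type. Kinases and kinesins outside the members thus did not show the order of medians seen among the members, a difference that was not tested.

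The constitutive centromere proteins, which sit on the Cenpa nucleosome throughout the cycle, were spread widely. Of 12 genes 7 were higher, with a median of 0.07 and a range from -0.36 to 0.55. Cenph stood at the upper end, Cenpm read 69.2 in mutant and 50.3 in wild type, and Cenpo, at the lower end, read 53.3 in mutant and 68.4 in wild type.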
